A study of Mus musculus with 2 samples.

Results

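The platelet-derived growth factor (PDGF) receptors and ligands were described in PDGFRα+ cells sorted from mouse inguinal fat. The group was defined by name and held 7 genes: the receptor genes Pdgfra, Pdgfrb and Pdgfrl and the ligand genes Pdgfa, Pdgfb, Pdgfc and Pdgfd. All 7 were measured, each by 1 probe set (the probes that report one transcript), among 19938 annotated genes on the array. Pdgfra encodes the surface protein on which the cells were sorted, so its presence was set by the sort.

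The arrays compared Sox9 PreASKO mice with Sox9 floxed mice. Sox9, a transcription factor gene best known from cartilage, is the targeted gene in both names, and the floxed mice carry the floxed gene by their label. All animals were females aged 6 weeks that had received doxycycline at postnatal day 1, and the cells were the PDGFRα+ part of the stromal vascular fraction, the non-adipocyte cells freed from white fat by collagenase. A single array was run per group, with RNA pooled from 3 mice according to the series, so no difference has a replicate error and none was tested. The sources used here do not name the promoter or cell type that drives recombination in PreASKO mice, and no gate against other cell types is named. Sox9 itself was at 4.97 in PreASKO cells and 5.25 in floxed cells, a difference of -0.27. Its transcript thus did not separate the labels by the 1.5-fold limit that the series names. Its probe set was dim: 22 of the 1027 olfactory receptor genes reached its PreASKO level and 15 its floxed level. The value therefore does not show how far Sox9 was lost in PreASKO cells.

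PDGFs are dimeric growth factors that signal through receptor tyrosine kinases. PDGFRα is carried by fibroblasts and by many adipocyte precursors, and PDGFRβ by fibroblasts and by the mural cells that wrap small vessels. Pdgfa and Pdgfb encode the classical chains, whereas the products of Pdgfc and Pdgfd are secreted in a latent form that proteases must open. Activated receptors recruit lipid kinases, phosphatases and adaptors, start the RAS and AKT cascades and induce immediate early genes. Pdgfrl encodes a protein that resembles the ligand-binding part of the receptors and has no kinase domain.

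All values are log2 values of the authors' robust multi-array average (RMA) table, and all differences are PreASKO minus floxed. A difference of 0.58 on this scale is 1.5-fold. The median value was 4.71 on the PreASKO array and 4.73 on the floxed array, and values correlated across 35556 probe sets with r = 0.982. Olfactory receptor genes, taken as silent in these cells, gave a mark of background. Their 95th percentile was 4.47 on the PreASKO array and 4.64 on the floxed array, and the higher value was used for both. Levels of different genes come from different probes, so no gene is called more abundant than another. Levels served to set genes against background and to find genes of like brightness, among which the size of a difference is then placed. Level ranges and log2 summed levels of marker lists are also given, and such a sum follows mainly its brightest probe sets. Pooled cells cannot tell fewer cells of a type from less RNA per cell.

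The receptor genes were all lower in PreASKO cells, and Pdgfrl passed the 1.5-fold limit. Of the 7 genes 1 was at least 1.5-fold lower and 0 were 1.5-fold higher, against 1.98% and 1.66% of all genes. Among the 6 members above background on an array 1 was 1.5-fold lower, against 1.46% of the 11800 genes above it. At 2-fold 0 were lower, against 0.145% of all genes. By sign alone 5 of the 7 were lower, against 48% of all genes. The median difference of the 7 was -0.18, against 0 over all genes. The 3 receptor genes had a median difference of -0.31 and ranged from -0.71 to -0.18. The 4 ligand genes had a median of -0.04 and ranged from -0.39 to 0.15. Without Pdgfb, which was at background, the median of the other 3 ligand genes was -0.11.

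**Figure D1:**
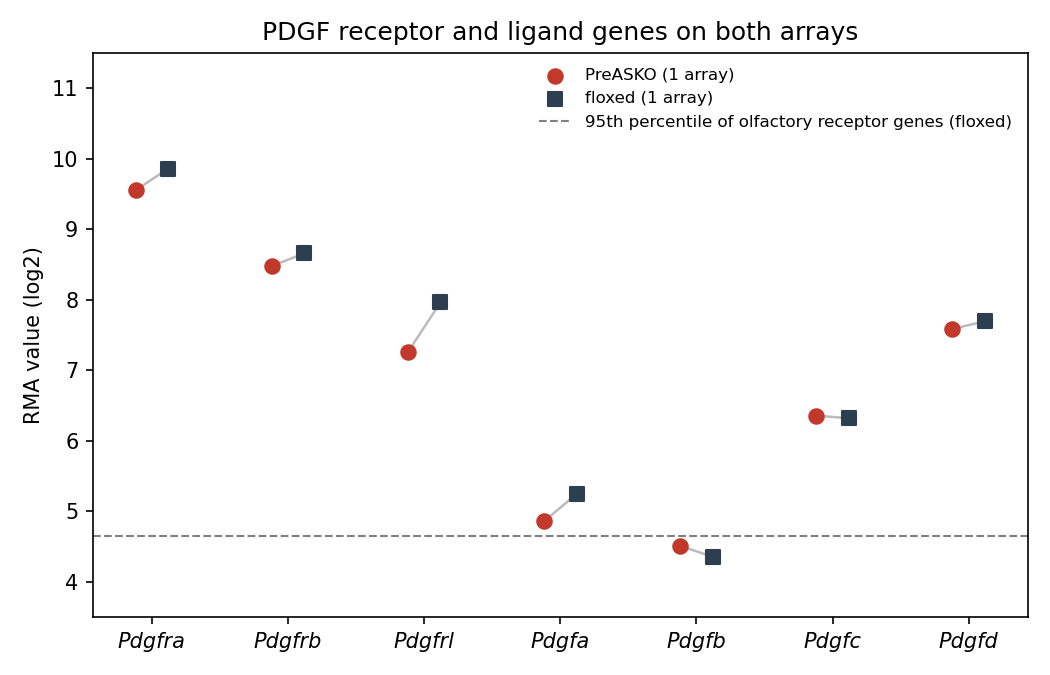
RMA values (log2) of the 7 genes, with 1 point per array (PreASKO circles, floxed squares) and a dashed line at 4.64, the background mark from olfactory receptor genes. The widest gap belongs to Pdgfrl (7.25 in PreASKO, 7.96 in floxed), and Pdgfb lies under the line on both arrays.

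Promoter sequence was examined for the core motifs of the factor families in the study's title, SOX and MEIS. The windows, from RefSeq on GRCm38.p6, run from 250 bases before to 50 bases after an annotated start, and 4 of the 7 genes (Pdgfra, Pdgfa, Pdgfc and Pdgfd) have one. The letters AACAAT and ACAAAG (SOX) and TGACAG (MEIS) were searched on both strands, and no match in these windows overlapped another, although both SOX strings share the letters ACAA. They occur by themselves in 10.7%, 18.7% and 19.2% of all 32851 windows, so a single match is common. The 3 windows with a match are shown 5′ to 3′ with the matched letters in capitals. Pdgfra (chr5:75152001-75152300, plus strand) holds TGACAG at base 248 of the window, across the start site. Pdgfc (chr3:81036166-81036465, plus strand) holds ACAAAG at base 83. Pdgfd (chr9:6168236-6168535, plus strand) holds ACAAAG on the other strand at base 64, printed as its reverse complement, and TGACAG at base 145.
Pdgfra: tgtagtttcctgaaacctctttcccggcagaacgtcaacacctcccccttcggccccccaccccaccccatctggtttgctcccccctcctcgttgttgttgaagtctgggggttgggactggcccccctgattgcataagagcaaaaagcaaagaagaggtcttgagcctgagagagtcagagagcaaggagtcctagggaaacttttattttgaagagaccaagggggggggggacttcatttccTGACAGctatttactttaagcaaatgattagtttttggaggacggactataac
Pdgfc: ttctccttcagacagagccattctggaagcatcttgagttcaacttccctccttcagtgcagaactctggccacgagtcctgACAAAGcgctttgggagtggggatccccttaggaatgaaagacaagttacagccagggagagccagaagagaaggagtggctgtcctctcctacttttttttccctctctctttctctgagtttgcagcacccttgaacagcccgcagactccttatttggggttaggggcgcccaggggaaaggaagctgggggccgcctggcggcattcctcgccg
Pdgfd: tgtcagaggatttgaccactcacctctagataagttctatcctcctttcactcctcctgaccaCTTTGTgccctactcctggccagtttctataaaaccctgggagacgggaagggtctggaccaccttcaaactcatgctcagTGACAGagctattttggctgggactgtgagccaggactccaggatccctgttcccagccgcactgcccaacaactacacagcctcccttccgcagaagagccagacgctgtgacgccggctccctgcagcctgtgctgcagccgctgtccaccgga
Neither of the 2 Pdgfa windows holds any of these letters. A match describes these letters and does not show binding. Matches were found at Pdgfra (-0.31) as well as at Pdgfc (0.04) and Pdgfd (-0.11), and no match at Pdgfa (-0.39). Pdgfrl (-0.71), the only member past 1.5-fold, has no window here, nor have Pdgfrb and Pdgfb. Matches could therefore not be set beside their differences.

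Pdgfra, the receptor of the sort and the gene with the MEIS letters at its start, was at 9.55 in PreASKO cells and 9.86 in floxed cells. The difference of -0.31 is 1.24-fold lower and did not reach the limit. Both arrays lay above every one of the 1027 olfactory receptor genes. The sort had set this presence beforehand, so it is no separate check of the cells. Most genes at this level differed less. Of 191 genes whose mean level lay within 0.25 of that of Pdgfra, itself included, 15 differed by at least as much in either direction and 5 were at least as much lower. The others among these 5, named after their values were seen, were the protease gene Adamts1 (-0.41), the collagen gene Col6a2 (-0.34), Eid1 (-0.34) and the semaphorin gene Sema3c (-0.34). Over all genes 20.8% differed by at least as much in either direction.

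Pdgfrb, the partner receptor that binds PDGF-B and PDGF-D, was at 8.48 in PreASKO cells and 8.66 in floxed cells. Its difference of -0.18 had the same sign as that of Pdgfra, and the Pdgfra difference minus the Pdgfrb difference was -0.13. Of 469 genes of like level 151 differed by at least as much, so a gap of this size was common on these arrays. Both arrays again exceeded every olfactory receptor gene.

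Pdgfrl stood out among the 7. It was at 7.25 in PreASKO cells and 7.96 in floxed cells, a difference of -0.71, or 1.63-fold lower. Over all genes 1.65% differed by at least as much in either direction. Of the 1017 genes of like level 6 did, and 2 were at least as much lower, Pdgfrl and the tubulin gene Tubb2b (7.36 in PreASKO and 8.13 in floxed), which was named after its value was seen. The Pdgfrl difference minus the Pdgfra difference was -0.40 on the same scale. Pdgfrl was above background on both arrays, so the gap does not rest on a dim probe set.

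**Figure D2:**
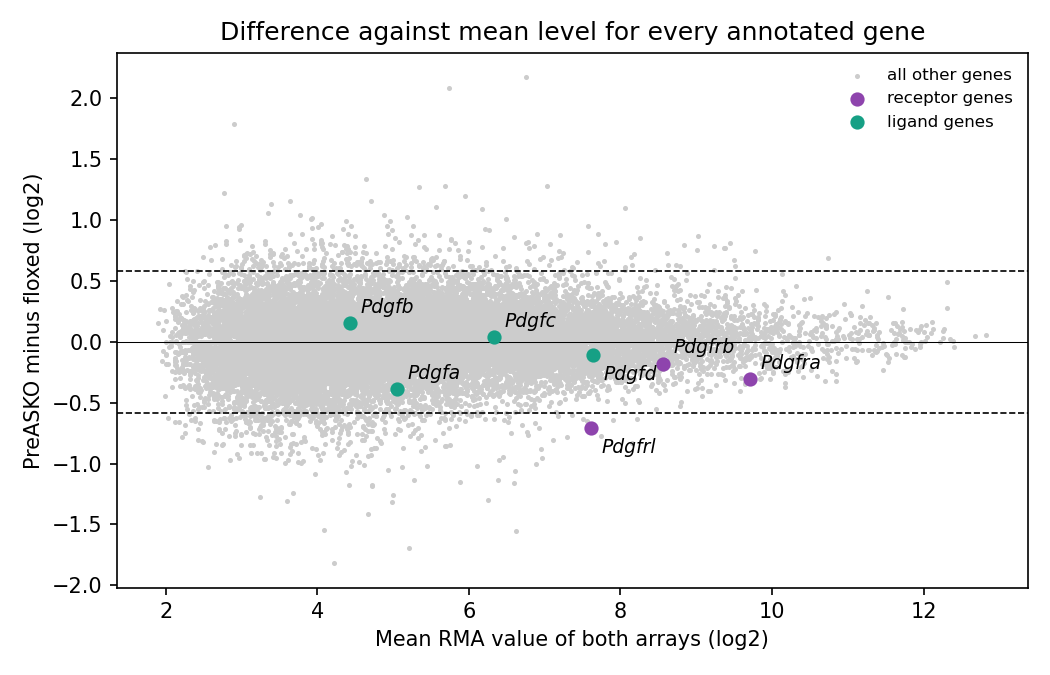
Difference PreASKO minus floxed (log2) against the mean RMA value of both arrays for 19938 genes in grey, with receptor genes in purple and ligand genes in green. Dashed lines mark 1.5-fold. Pdgfrl (-0.71) lies past the lower line, Pdgfra (-0.31) lies at the lower edge of genes of its level, and the ligand genes lie inside the cloud.

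Among the ligands, Pdgfa had the largest difference. This gene of the PDGF-A chain, which signals through PDGFRα, was at 4.86 in PreASKO cells and 5.24 in floxed cells, a difference of -0.39 or 1.31-fold lower. It was dim: 28 of the 1027 olfactory receptor genes reached its PreASKO level and 16 its floxed level. Of 1681 genes of like level 264 (15.7%) differed by at least as much.

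Pdgfb encodes the chain made by endothelial cells and platelets to recruit mural cells. It was at 4.51 in PreASKO cells and 4.35 in floxed cells, at or under the background mark on both arrays, and 49 and 88 olfactory receptor genes reached those levels. Its difference of 0.15 is therefore not a measured change, and no fold is given.

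Both latent ligands lay well above background. Pdgfc, whose product signals mainly through PDGFRα, was at 6.35 in PreASKO cells and 6.32 in floxed cells, a difference of 0.04. At least this large a difference was found in 87.2% of all genes. Pdgfd, whose product signals through PDGFRβ, was at 7.59 in PreASKO cells and 7.69 in floxed cells, a difference of -0.11. For Pdgfd that share was 62.6%. Without replicates these values show no more than that the arrays differed little at these genes.

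The enzymes and proteins that process or bind PDGFs differed less than 1.5-fold. Of 17 measured genes of 18, 12 were lower and 5 higher by sign and 0 reached the limit, with a median of -0.11. Over all genes 48% were lower by sign, and 1.98% and 1.66% were 1.5-fold lower and higher. Plat, the tissue plasminogen activator that opens latent PDGF-C, was at 9.70 in PreASKO cells and 9.96 in floxed cells (-0.25). Plau, the urokinase that opens PDGF-D, was at 9.11 and 9.27 in PreASKO and floxed cells (-0.16). Both activators were far above background in both groups. Cspg4, the proteoglycan NG2 that binds PDGF-A and marks mural cells, was at 4.66 in PreASKO cells and 4.99 in floxed cells (-0.33) and thus dim.

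Further partners pointed both ways. The co-receptor gene Lrp1 differed by 0.07, Nrp1 by -0.03, the PDGF-binding matrix gene Sparc by 0.01 and the pro-protein convertase gene Furin, which matures the classical chains, by -0.01. Thbs1, a matrix protein gene, differed by -0.22 and the convertase gene Pcsk7 by -0.24. Nrp2, a relative of Nrp1, was at 6.18 in PreASKO cells and 5.91 in floxed cells (0.28).

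Genes of receptor-proximal signalling had a median of -0.02 over 31 measured genes of 32. In either direction 0 reached 1.5-fold, against 1.98% lower and 1.66% higher over all genes, so few would be looked for in a list of this size. Fyn, a SRC family kinase, was at 8.22 in PreASKO cells and 8.58 in floxed cells (-0.36). Ptpn11, the phosphatase SHP2, was at 7.59 in PreASKO cells and 7.90 in floxed cells (-0.32). The transcription factor gene Stat5b (0.46) and the kinase gene Src (0.33) were higher in PreASKO, so the members with the largest differences pointed both ways.

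The RAS-MAPK and AKT cascade had a median of 0.06 over the 16 genes analysed here. Of these 0 reached 1.5-fold, against 1.98% lower and 1.66% higher over all genes. Of its feedback inhibitors, Spry1 was at 5.88 in PreASKO cells and 5.56 in floxed cells (0.32) and Spred1 at 7.69 in PreASKO cells and 7.95 in floxed cells (-0.26). The kinase genes Mtor and Akt1 differed by 0.31 and -0.21.

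Immediate early genes, the first transcripts that PDGF induces in cultured fibroblasts, had a median of 0.04 over 14 measured genes. Of these 0 were past the limit, against 1.98% lower and 1.66% higher over all genes. By sign 10 were higher and 4 lower, against 48% of all genes lower. Ier2 differed by 0.25, Egr2 by 0.21, Junb by 0.19 and Myc by -0.14. The median level of the list was 9.75 in PreASKO cells and 9.68 in floxed cells. Whether PDGF set these levels was not tested.

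**Figure D3:**
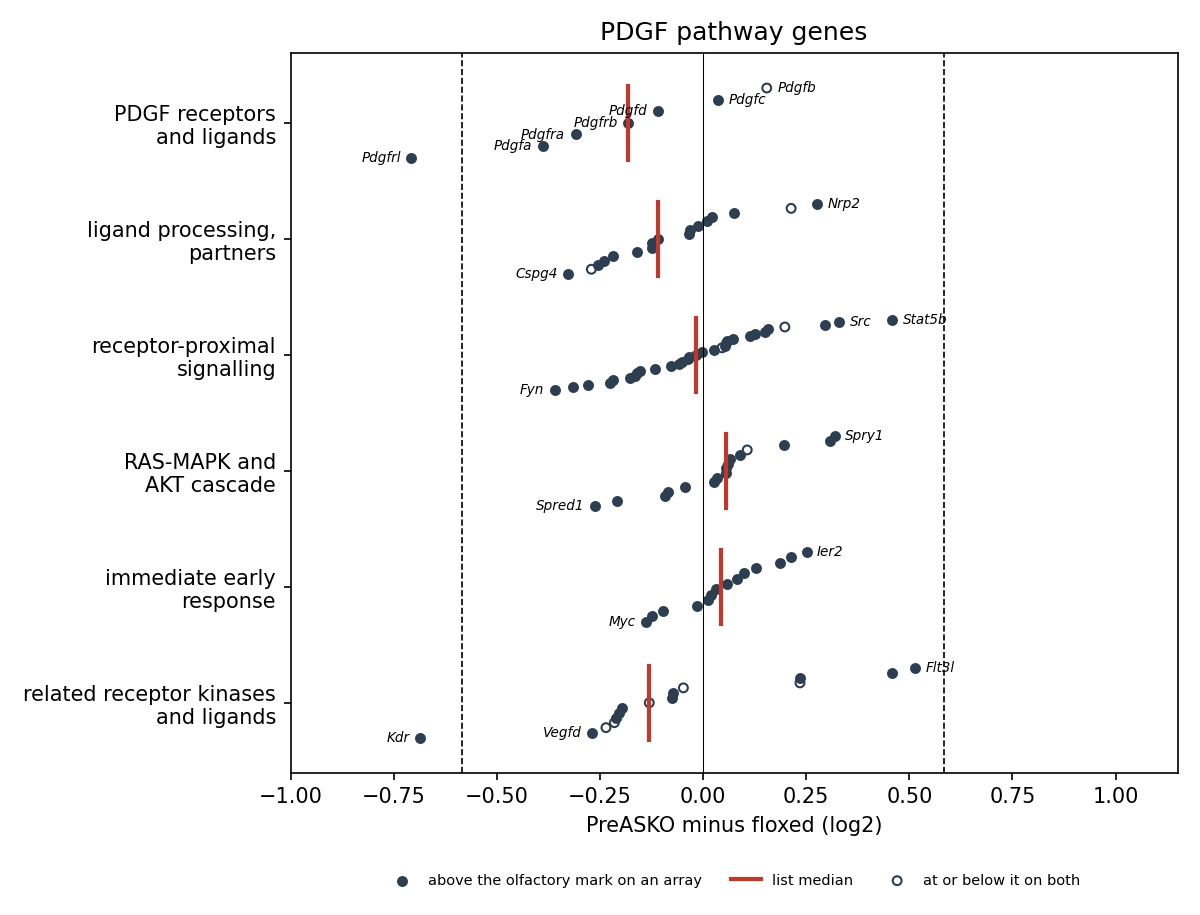
Difference PreASKO minus floxed (log2) of each measured gene in 6 lists, filled where the gene exceeded the olfactory mark (4.64) on an array and open where it did not; red bars are list medians and dashed lines mark 1.5-fold. Pdgfrl (-0.71) and Kdr (-0.69) are the points past a line.

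The receptor kinases most related to the PDGF receptors, with the ligands of those kinases, were set beside them. This list of 15 genes, receptors and ligands together and all measured, had a median of -0.13. At 1.5-fold 1 gene was lower and 0 were higher, against 1.98% and 1.66% of all genes. On both arrays 5 of the 15, among them the receptor genes Kit, Flt3, Flt1 and Flt4, were under the background mark. In the mouse genome Kit and Kdr follow Pdgfra on chromosome 5, and Csf1r follows Pdgfrb on chromosome 18. Kdr, a receptor of vascular endothelial growth factor, was at 4.86 in PreASKO cells and 5.55 in floxed cells (-0.69, 1.61-fold lower). Kit, the stem cell factor receptor, was under the background mark with 4.20 in PreASKO cells and 4.24 in floxed cells. The ligand gene Flt3l had the second largest difference of the list (0.51). Csf1r, the growth factor receptor of macrophages, was at 8.96 in PreASKO cells and 8.50 in floxed cells (0.46), opposite in sign to its neighbour Pdgfrb. The ligand gene Vegfd differed by -0.27. Next to Pdgfrl on chromosome 8 lies Mtus1, named after its value was seen, at 5.49 in PreASKO cells and 6.10 in floxed cells (-0.60). Its neighbour on the other side, Slc7a2, was under the background mark with 3.84 in PreASKO cells and 3.86 in floxed cells (-0.03).

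The label PDGFRα+ was checked against cell type markers. Stromal progenitor markers, 16 measured of 18, were between 8.12 and 12.2 in PreASKO cells and between 7.80 and 12.2 in floxed cells. Their median difference was -0.04 and 0 were past the limit, against 1.98% lower and 1.66% higher over all genes. Pdgfra itself differed by -0.31. Most of these markers had brighter probe sets than Pdgfra, so their median is no like-for-like measure for it. Whether the share of stromal cells differed was not tested. The lowest difference among the markers was that of Col1a1 at -0.21. The others with the largest differences were Entpd2 (0.31), Thy1 (0.17) and Clec3b (-0.17). The log2 of their summed level was 15.2 in both groups.

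Mural markers bear on Pdgfrb and endothelial markers on Pdgfb. The 13 mural markers had a median of -0.20, with 8 lower by sign, against 48% of all genes. That median was 0 with values raised to the background mark and -0.31 over members at 5.18 or more on an array. The log2 of their summed level was 9.16 in PreASKO cells and 9.36 in floxed cells. Kcnj8 (-0.62) was 1.54-fold lower, Acta2 differed by -0.44, Abcc9 by -0.41 and Notch3 by 0.46. Rgs5, a defining pericyte gene, was dim with 4.80 in PreASKO cells and 4.70 in floxed cells. Cnn1 passed the limit upwards while under the background mark on both arrays. At 1.5-fold 1 of the 13 mural markers was lower and 1 higher, against 1.98% and 1.66% of all genes. Their part in the value of Pdgfrb (-0.18) was not tested. The 13 endothelial markers had a median of -0.09, which turned to 0.02 over members at 5.18 or more and became 0 with values raised to the mark, with a log2 summed level of 9.34 in PreASKO cells and 9.45 in floxed cells, and 5 of them were under the mark on both arrays. Kdr (-0.69), Pecam1 (-0.31), Cldn5 (0.25) and Tek (-0.20) had the largest differences among those above it on an array. Pecam1 was above it only on the floxed array (4.79, against 4.48 on the PreASKO array), where it was higher.

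Macrophage markers had the opposite sign to the receptor genes. Of 14 measured genes 13 were higher and 1 was lower in PreASKO by sign, against 48% of all genes lower. At 1.5-fold 5 were higher and 1, Cx3cr1 (-0.60), was lower, against 1.66% and 1.98% of all genes. The list median was 0.49. The log2 of their summed level was 13.6 in PreASKO cells and 13.0 in floxed cells, and H2-Ab1 (0.81), Tyrobp (0.77), C1qa (0.75) and Cd74 (0.75) led. Their part in the value of Pdgfra (-0.31) was not tested. Of 4 measured platelet and megakaryocyte markers of 7, Pf4, which macrophages also express, was at 10.3 in PreASKO cells and 9.93 in floxed cells (0.42), while Itga2b differed by -0.09, and Ppbp and Gp9 lay under the mark. Of 8 lymphocyte markers 7 were measured, with a median of 0.12, and 4 lay under the mark on both arrays. At 1.5-fold 1 was higher and 0 were lower, against 1.66% and 1.98% of all genes. The higher one was Cd3e (0.88), with 5.84 in PreASKO cells and a dim 4.96 in floxed cells. Cd3g differed by 0.12 and Cd79b by -0.09.

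The remaining markers were mostly near background. Of 7 epithelial markers 5 lay under the mark on both arrays, and Krt8 and Krt19 differed by 0.38 and 0.31. Of 6 adipocyte markers 4 lay under it, and Plin1 and Lipe differed by -0.05 and 0.01. The 3 measured Schwann cell markers of 5, Sox10 (-0.48), Mbp (-0.08) and S100b (-0.01), were above it on both arrays.

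**Figure D4:**
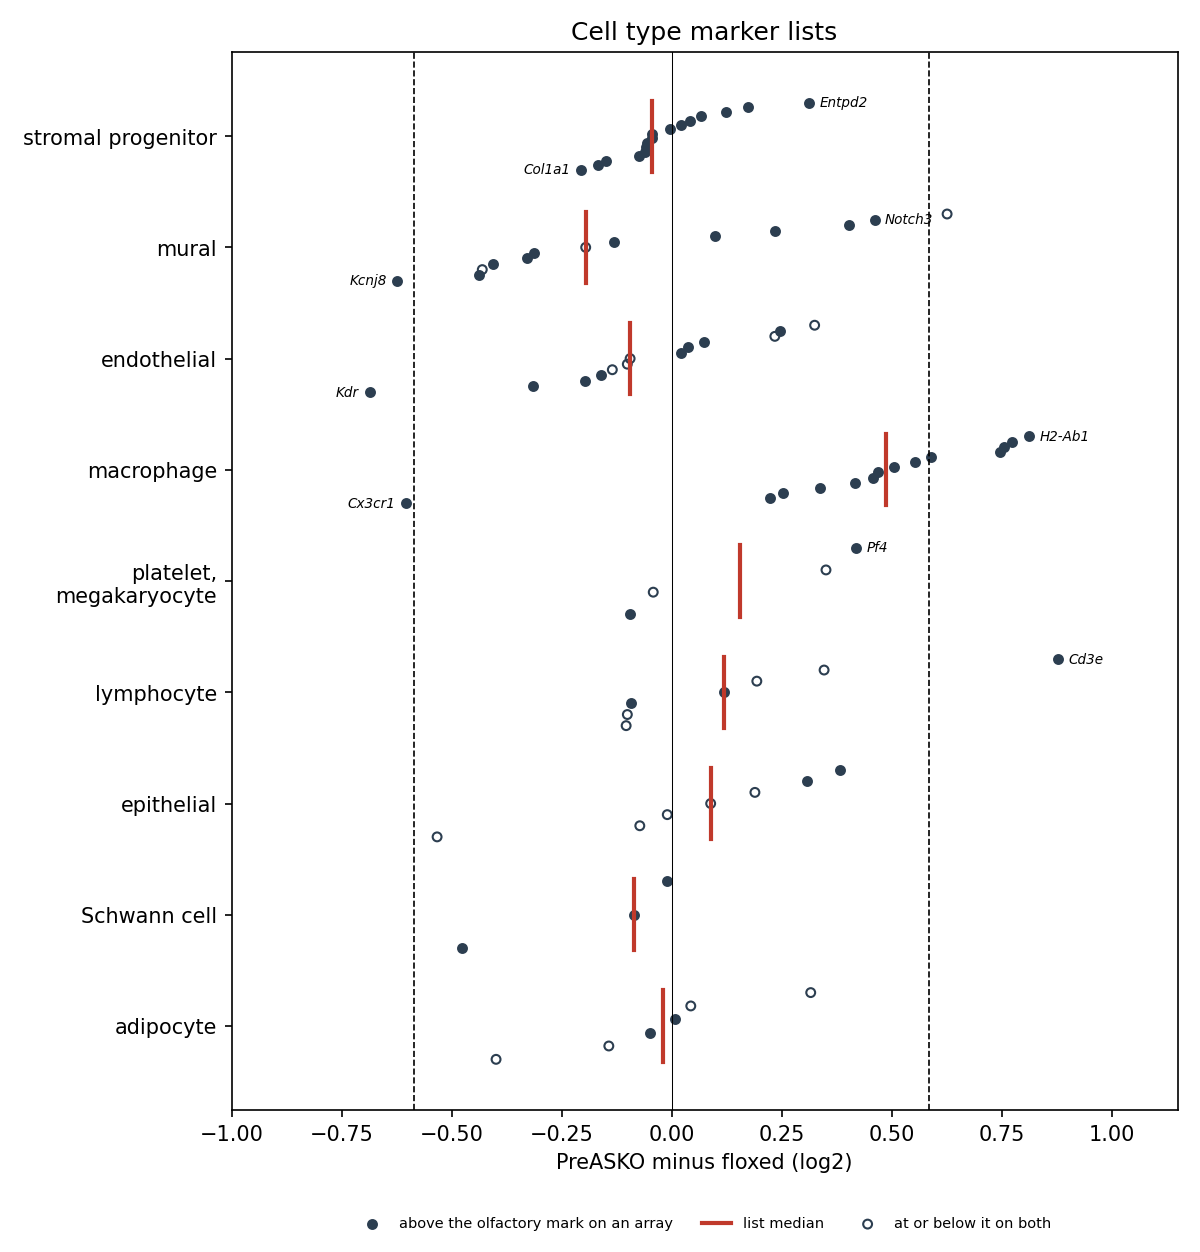
Difference PreASKO minus floxed (log2) of each measured marker in 9 cell type lists, filled where above the olfactory mark on an array and open where not; red bars are list medians and dashed lines mark 1.5-fold. The macrophage median (0.49) lies to the right, the mural median (-0.20) to the left and the stromal progenitor median (-0.04) near 0.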

How the data were processed

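RNA of PDGFRα+ cells was measured on 1 array per group. The authors deposited a log2 value per probe set, made with RMA according to the submitters' processing notes. RMA subtracts background, equalises the distributions and combines the probes of a set; it understates differences of dim genes and would hide a change shared by most genes. The log base was taken from the values (1.23 to 13.8). No version is given in the sources used here.

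Of 35556 probe sets the 21789 that name 1 gene in the platform annotation were used. The probe set with the highest mean stood for each of 999 genes with several. All 7 genes have 1 probe set and were found by identifier in the RefSeq table of GRCm38.p6, which was used for names and gene order. With 1 array a group no test was made, and the limit was 1.5-fold.

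The members and lists were chosen with earlier results of these data known. Named genes are the members, Sox9 and textbook partners, and list members above the olfactory mark on an array. From each list up to 4 per direction past the limit were taken, otherwise the 4 largest differences. The 3 genes nearest Pdgfra over both values are not reported as such, because levels of different probes are not comparable. Of these, Col6a2 and Sema3c are named only as genes of like level. The alternatives were the mean over probe sets, the second brightest probe set, loess (span 0.3), quantile normalization, centring, values raised to the olfactory mark, a 2-fold limit and a level floor of 5.18 on the higher array. The steps were tested on simulated data. Tables were handled in Python 3.11.15 with numpy 2.4.6 and pandas 2.3.3, loess came from statsmodels 0.14.6, and figures were drawn with matplotlib 3.10.9.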

Additional observations from a re-analysis of the deposited data

How the results depend on the processing

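Over the 7 genes, the mean over probe sets, the second brightest probe set and centring changed nothing, since each gene has 1 probe set and the median difference of all genes was 0. Under loess, quantile normalization and values raised to the olfactory mark Pdgfrl stayed between -0.73 and -0.71, Pdgfra between -0.34 and -0.31, Pdgfrb between -0.21 and -0.18, Pdgfa between -0.39 and -0.38, Pdgfd between -0.13 and -0.11 and Pdgfc between 0.01 and 0.04. Raising values to the mark set the difference of Pdgfb and the median of the related receptor kinases and ligands to 0, by construction for genes under the mark on both arrays. At the 2-fold limit 0 of the 7 genes and 0 of the related receptor kinases and ligands were lower, against 0.145% of all genes. Over the ligand genes above background, a setting chosen after seeing the data, the ligand median was -0.11. Marker list medians that moved by over 0.1 also included platelet and megakaryocyte markers (0 with raised values, 0.42 above the level floor), lymphocyte markers (0 and 0.39) and epithelial markers (0.34 above the floor). For the 7 genes and the 5 pathway lists the other 177 values under these settings moved by less than 0.1 or, for counts, by no more than 1.5 times. No paired analysis was possible because there was a single array per group, and none could be left out. Precision is limited by the number of arrays, and Pdgfa and Pdgfb also by signal near background.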
